A study of Homo sapiens with 6 samples.

Results

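The factors that start, carry out and end protein synthesis were examined at the mRNA level in NCI-H1299 cells, an established human lung cancer line, with and without a short hairpin RNA against Ephexin1. Genes were taken by name: the eIF1 to eIF6 families, the eEF1 family, EEF2 and its kinase EEF2K, the release factors ETF1 and GSPT1, and the poly(A)-binding proteins PABPC1 and PABPC4, leaving out names of pseudogene form. This gave 64 of the 26255 genes listed, and the rule itself uses no measured value. Levels are FPKM, read fragments scaled to transcript length and library size, and 58 of the 64 reached 0.1 FPKM in at least 3 of the 6 libraries and were tested. The name rule leaves out the eIF4E-binding proteins EIF4EBP1, EIF4EBP2 and EIF4EBP3, which are described with the related genes.

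The control group (shControl, 3 libraries) carried a pSilencer2.1-U6 plasmid with a control hairpin, and the knockdown group (shEphexin1, 3 libraries) carried the same kind of plasmid with a hairpin against Ephexin1, the guanine nucleotide exchange factor encoded by NGEF. Both were stable lines, selected in medium with hygromycin per the methods, and grown in RPMI-1640 medium with fetal bovine serum. No other treatment is described. Total RNA was extracted with TRIzol and sequenced from TruSeq stranded total RNA libraries. The names of the 3 shEphexin1 libraries share a stem and may stand for 1 clone, and nothing in the labels says that libraries came from separate cultures, so the p-values measure the spread between these libraries, which may be technical.

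Translation of most mRNAs starts when eIF4F (the cap-binding protein eIF4E, the scaffold eIF4G and the helicase eIF4A, helped by eIF4B or eIF4H) binds the cap and recruits a small ribosomal subunit that carries eIF3, eIF1, eIF1A and the eIF2 ternary complex with the initiator tRNA. The elongation factor eEF1A then brings each aminoacyl-tRNA to the ribosome, eEF1B recharges eEF1A with GTP, eEF2 moves the ribosome along, and the release factors end the chain. Growth signals act on the system through mTOR, S6 kinase and the eIF4E-binding proteins, and stress acts through kinases that phosphorylate eIF2. Many mRNAs of ribosomal proteins and elongation factors begin with a C followed by a run of pyrimidines, the 5′ terminal oligopyrimidine (TOP) motif, which couples their translation to mTOR.

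Windows of 30 bases around annotated transcript starts are shown for 4 factors whose start has this form and for 2 that lack it, since the mRNAs of the first kind include the most abundant factor and the one with the largest difference between groups. They are taken from RefSeq on GRCh38.p14, 12 bases before the start and 18 from it on, 5′ to 3′ on the gene's strand, and capitals mark an unbroken run of C and T that opens with a C at the start and goes on for at least 4 more pyrimidines. Where a gene has several annotated starts in the table, any of them could hold the motif. The windows shown are a choice. Of the 12 factors tested with this form, 11 had log2 fold changes below 0, and EIF4A2, not shown, had 0.13.
EIF4B (chr12:53006444-53006473, plus strand): cctcatccgggtCTTTTgcgttctctttcc
EEF1B2 (chr2:206159883-206159912, plus strand): gtctcttcgggtCCTTTTTCCTCTCTTCag
EEF1A1 (chr6:73521015-73521044, minus strand): gccgtgaacgttCTTTTTCgcaacgggttt
EEF2 (chr19:3985446-3985475, minus strand): gacgtcagcgttCTCTTCCgccgtcgtcgc
EIF3B (chr7:2354815-2354844, plus strand): cgtcgcacgcacatggctgggctgtagccg
EIF2AK3 (chr2:88627447-88627476, minus strand): gatgtccgagataggctgtcactcaggtgg

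NGEF, the targeted gene, measured 13.3, 11.7 and 16.4 FPKM in the shControl libraries and 9.81, 8.25 and 10.5 FPKM in the shEphexin1 libraries. The groups did not overlap, and shEphexin1 held 68.9% of the control mean, but the difference did not pass the test (log2 fold change −0.53, SE 0.16, adjusted p = 0.103 in limma). Of markers of the line, VIM was at 1979 to 2670 FPKM, KRT18 at 36.3 to 109 FPKM and KRT8 at 2.65 to 8.44 FPKM. KRT18 and KRT8 were lower in shEphexin1, without overlap, at 52.0% and 46.1% of the control mean. Their log2 fold changes were −0.94 and −1.07 (adjusted p = 0.0439 and 0.0304 in limma). With the median of their chromosome arm subtracted, the adjusted p in limma was 0.0863 for KRT18 and 0.0521 for KRT8. With single libraries left out, it rose to at most 0.170 for KRT18 and 0.134 for KRT8. PTPRC and CD3E, markers of blood cells, were listed at 0 in every library. Replicate 2 of both groups stood apart from replicates 1 and 3: the deviation of its genes from the group mean followed GC content with Spearman correlations of −0.70 and −0.76 across genes, against 0.34 to 0.67 in the other 4 libraries. Values for replicates 1 and 3 alone, and from a fit with a term for replicate 2, are therefore given beside the results. In RNA from whole cultures, fewer cells of a kind and less RNA per cell cannot be told apart.

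None of the 58 factors differed by 2-fold together with an adjusted p no greater than 0.025, the threshold that 1.89% of all 16020 genes tested met in either direction. Without a fold threshold, at an adjusted p no greater than 0.05, 6 factors were lower in shEphexin1 and 0 were higher, where 4.32% of all genes tested were lower and 2.69% were higher. The 6 were EIF4B, EEF1B2, EIF2S2, EIF3L, EIF2AK1 and EIF3B. EIF4B alone passed when shControl replicate 1 or 3 or shEphexin1 replicate 1 or 3 was left out, 3 factors (EEF1B2, EIF3B and EIF4B) passed without shControl replicate 2, and 9 passed without shEphexin1 replicate 2. Of all genes tested, 0.543% to 4.94% were lower in these fits. In these fits the adjusted p of the 5 factors other than EIF4B rose to between 0.115 and 0.182 at most. At an unadjusted p under 0.05, 15 factors were lower and 1 was higher, beside 12.8% and 10.5% of all genes tested. The estimates lay below 0 for 47 factors and above 0 for 11, that is below 0 in 81.0% of the factors and in 51.1% of all genes tested. Among all genes with a mean of at least 50 FPKM, a level that many of the factors reached, they lay below 0 in 73.9%. The median log2 fold change of the factors was −0.20, with a range of −0.80 to 0.31, against a median of −0.0093 over all genes tested. In 22 factors every shEphexin1 library was below every shControl library and in 1, EIF2AK3, every one was above, beside 15.4% and 12.8% of all genes tested.

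**Figure D1:**
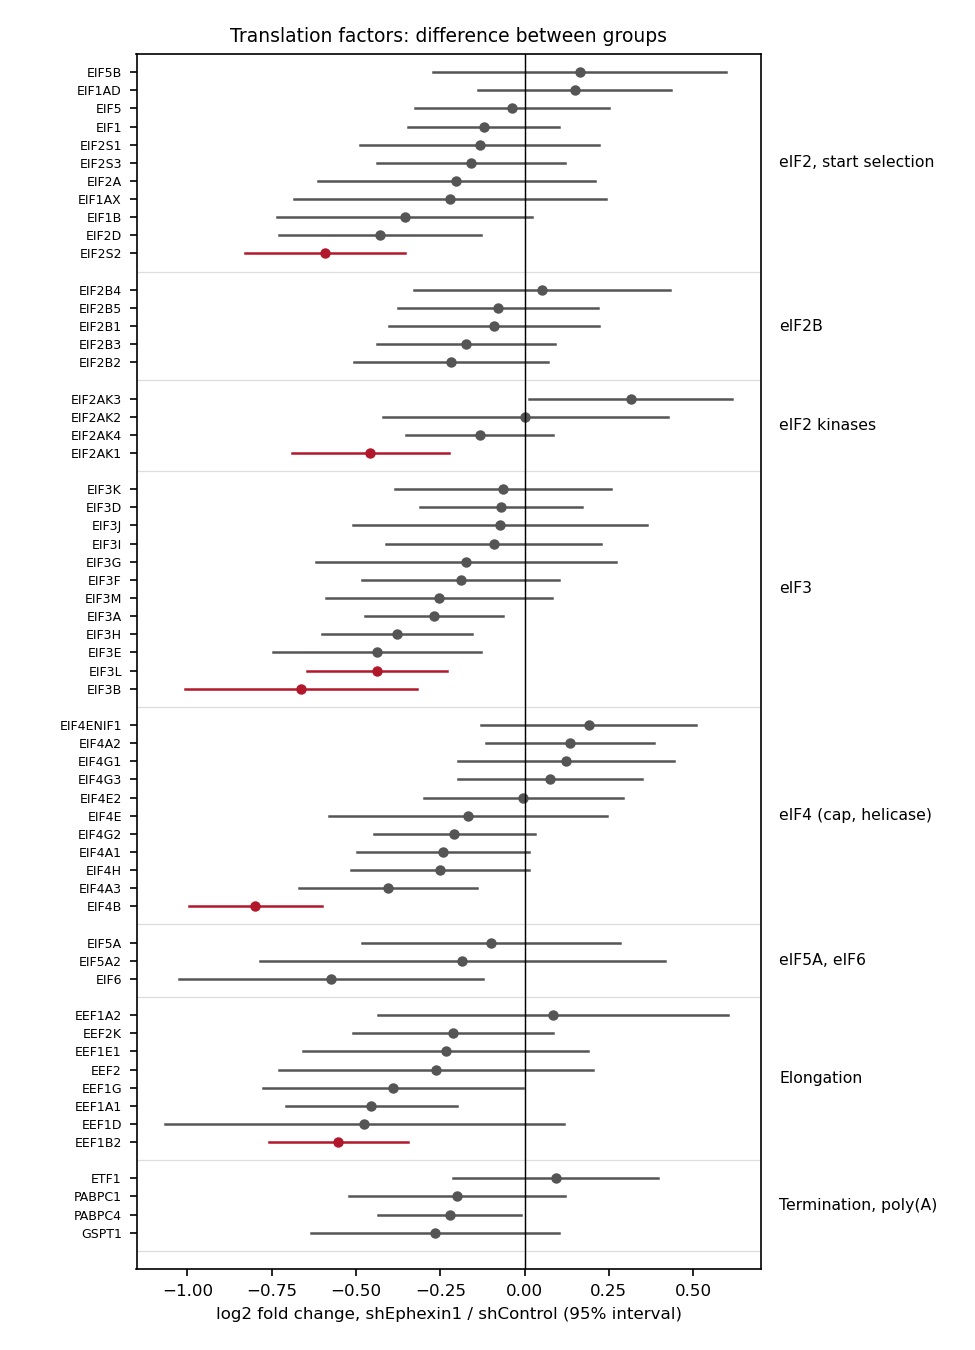
Log2 fold change (x axis, shEphexin1 over shControl) of the 58 factors tested, grouped by role. Points are estimates from limma, lines are 95% intervals, and the 6 factors that passed the 0.05 threshold on adjusted p are red. All 6 red points lie left of 0, between −0.80 and −0.44.

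At 50 FPKM and above, the median difference of the factors was close to that of all genes of that level, and at a lower cut it was not. These factors are abundant: 32 of the 58 had a mean of at least 50 FPKM, as did 1424 of all genes tested. Over those 1424 genes the median log2 fold change was −0.18, and over the 32 factors it was −0.23. Among genes of at least 100 FPKM the medians were −0.25 over all 671 genes and −0.25 over the 22 factors. Among genes of at least 10 FPKM they were −0.075 over all 6683 genes and −0.20 over the 54 factors. Of those 6683 genes, 61.4% had estimates below 0. Estimates lay below 0 in 73.9% of the 1424 genes and in 77.8% of the 671 genes. Of the 32 abundant factors, 5 were lower at adjusted p ≤ 0.05, where 11.6% of all genes of that level were. Groups that did not overlap, with shEphexin1 lower, were seen in 15 of the 32, where 31.5% of the genes of that level showed this. After quantile normalization, which gives each library the same distribution of values, the median of the 58 factors was −0.042, and 37 estimates were below 0. At adjusted p ≤ 0.05, 2 factors were then lower (EIF4B and EIF3B) and 1 was higher (EIF3K), where 3.11% of all genes tested were lower and 2.56% were higher. On the deposited scale the median abundant mRNA was thus lower in shEphexin1, and the values of single factors below are on that scale.

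The sum of FPKM over the 64 factors was 13245, 12481 and 13632 in shControl and 10470, 10229 and 10487 in shEphexin1. The groups did not overlap in this sum. As a share of the summed FPKM of all genes, the factors held 2.11%, 2.22% and 2.09% in shControl and 1.87%, 1.98% and 1.79% in shEphexin1. The sum is carried largely by the elongation factors, which made up 7093 to 7886 FPKM in shControl and 5598 to 5715 FPKM in shEphexin1.

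EIF4B (ENSG00000063046, GRCh37 chr12:53400066-53435999, plus strand) encodes the RNA-binding partner that raises the activity of the eIF4A helicase and is a substrate of S6 kinase. It measured 264, 261 and 265 FPKM in the shControl libraries and 150, 155 and 149 FPKM in the shEphexin1 libraries. The 3 libraries of each group lay close together and the groups were far apart. Expression in shEphexin1 was 57.5% of control, a 1.74-fold difference (log2 fold change −0.80, SE 0.084, adjusted p = 0.0038 in limma), which is short of the 2-fold threshold. The difference was −0.82 in replicates 1 and 3 and −0.75 in replicate 2. EIF4B was the factor with the largest difference and its adjusted p did not exceed 0.044 under every alternative computed, quantile normalization (−0.62) and each left-out library included.

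EIF4B was 1 of 11 cap-binding and helicase factors tested, and the other 10 did not pass the test. Estimates were below 0 for 7 of the 11, beside 51.1% of all genes tested and 73.9% of those of at least 50 FPKM. The median of the 11 was −0.17, and it was 0.067 after quantile normalization. EIF4A1, the main helicase and the most abundant of these mRNAs, measured 477, 432 and 513 FPKM in the shControl libraries and 415, 366 and 420 FPKM in the shEphexin1 libraries (log2 fold change −0.24, SE 0.11, adjusted p = 0.237). Its locus overlaps a readthrough transcript from SENP3, so reads may be shared. Its groups did not overlap, but the estimate turned to 0.13 after quantile normalization. The amount of EIF4B mRNA per EIF4A1 mRNA, as a ratio of FPKM, was 0.553, 0.603 and 0.517 in shControl and 0.361, 0.423 and 0.355 in shEphexin1, groups that did not overlap (exact permutation test, two-sided, p = 0.1, the smallest that 3 libraries against 3 allow). The ratio reuses the EIF4B values above, so it is no separate support.

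EIF4A2, the second eIF4A helicase, measured 118, 121 and 114 FPKM in the shControl libraries and 134, 139 and 115 FPKM in the shEphexin1 libraries, with overlapping groups (log2 fold change 0.13). EIF4A1 made up 80.0% ± 1.87 (SD, n = 3) of the summed FPKM of both in shControl and 75.5% ± 3.04 in shEphexin1, and the shares overlapped (exact permutation test, p = 0.2). EIF4A3, a helicase of the exon junction complex, ranged from 41.8 to 45.6 FPKM among shControl and from 29.5 to 36.3 FPKM among shEphexin1 libraries, and its difference of −0.41 had an adjusted p of 0.078. EIF4H, a smaller relative of eIF4B, averaged 291 ± 29.2 FPKM in the controls and 244 ± 17.3 FPKM after knockdown, a difference of −0.25 that shrank to −0.016 after quantile normalization. With the median of its chromosome arm subtracted, the difference of EIF4H was −0.58 (adjusted p = 0.0351 in limma).

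EIF4E, which binds the cap itself, measured 43.5, 45.5 and 38.6 FPKM in the shControl libraries and 36.2, 48.6 and 30.6 FPKM in the shEphexin1 libraries. The groups overlapped, and replicate 2 was the highest library in both (log2 fold change −0.17, SE 0.18). Its relative EIF4E2 was at nearly the same level, 28.6 to 34.1 FPKM in shControl and 27.2 to 33.9 FPKM in shEphexin1. EIF4ENIF1, the eIF4E transporter, was at 4.59 ± 0.28 and 5.26 ± 0.49 FPKM, with overlapping groups.

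The scaffold EIF4G1 had log2 fold change 0.12 (SE 0.14) and EIF4G3 had 0.076 (SE 0.12), with overlapping groups in both. EIF4G2, a family member that lacks the eIF4E-binding part and serves cap-independent initiation, measured 232, 255 and 229 FPKM in the shControl libraries and 200, 225 and 195 FPKM in the shEphexin1 libraries, and was the most abundant of the 3. Every shEphexin1 library was below every shControl library, but the difference of −0.21 did not pass the test (adjusted p = 0.274) and was −0.0097 after quantile normalization. Within the 3, EIF4G2 made up 63.9% ± 2.87 of the summed FPKM in shControl and 58.6% ± 3.91 in shEphexin1 (exact permutation test, p = 0.3).

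**Figure D2:**
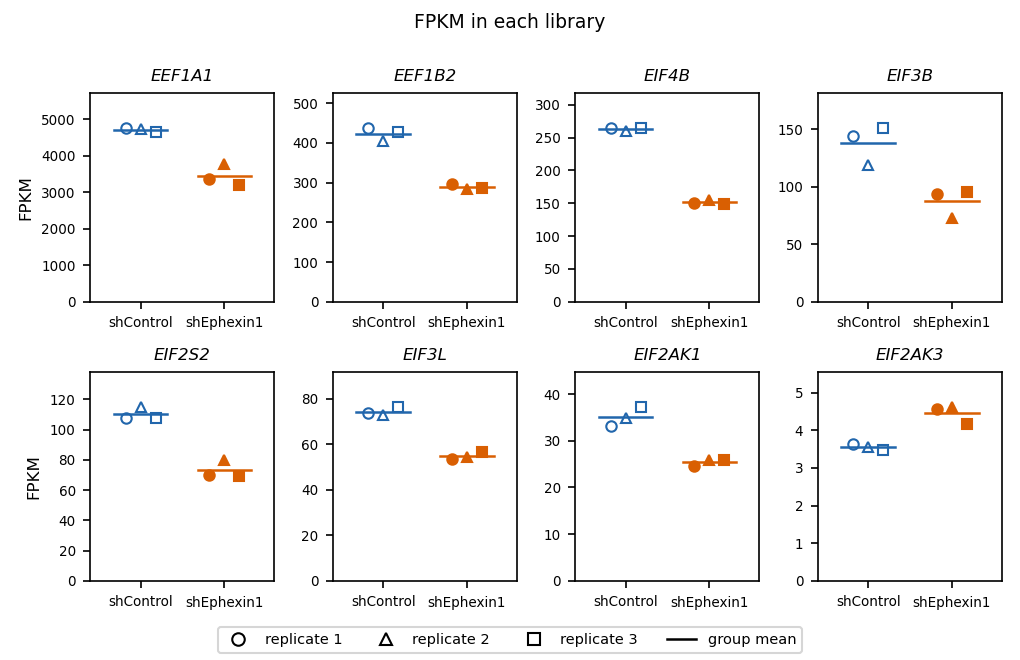
FPKM in each library (y axes, linear and starting at 0) for the 6 factors that passed the 0.05 threshold on adjusted p, for EEF1A1 and for EIF2AK3. Open symbols are shControl, filled symbols are shEphexin1, the symbol shape gives the replicate number and lines are group means. The groups do not overlap in any of the 8, and EIF2AK3 is higher in shEphexin1.

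Among the elongation factors, a list by name that includes EEF1E1 and the kinase EEF2K, 1 of 8 genes passed the test. Below 0 lay 7 of 8 estimates (median −0.33), against 5 of 8 after quantile normalization (median −0.15). Before that normalization, estimates lay below 0 in 51.1% of all genes tested and in 73.9% of those of at least 50 FPKM. EEF1B2 (ENSG00000114942, GRCh37 chr2:207024309-207027652, plus strand) encodes the nucleotide exchange subunit of eEF1B. It measured 437, 404 and 426 FPKM in the shControl libraries and 296, 283 and 285 FPKM in the shEphexin1 libraries, with a wide gap between the groups. The level in shEphexin1 was 68.1% of control (log2 fold change −0.55, SE 0.088, adjusted p = 0.0159 in limma). The difference was −0.57 in replicates 1 and 3, −0.51 in replicate 2 and −0.25 after quantile normalization, where the adjusted p was 0.124.

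EEF1A1, the main carrier of aminoacyl-tRNA, was the most abundant factor of all. It measured 4759, 4722 and 4648 FPKM in the shControl libraries and 3357, 3770 and 3203 FPKM in the shEphexin1 libraries, with every shEphexin1 library below every shControl library. The level in shEphexin1 was 73.1% of control, and the adjusted p of 0.0506 (log2 fold change −0.46, SE 0.11) lay just above the threshold. In replicates 1 and 3 alone the difference was −0.52 with an adjusted p of 0.0199, and after quantile normalization it was −0.14 with an adjusted p of 0.439. EEF1A1 has many processed pseudogenes of near-identical sequence, so part of its reads may have been assigned elsewhere.

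EEF1A2, the eEF1A paralog of muscle and neurons, measured 42.6, 34.1 and 54.6 FPKM in the shControl libraries and 46.6, 35.6 and 57.0 FPKM in the shEphexin1 libraries. Its groups overlapped nearly fully, and EEF1A1 made up 98.3% to 99.3% of the summed FPKM of both in every library. The other eEF1B subunits were lower in shEphexin1 within each replicate number but overlapped between groups. EEF1G, the gamma subunit, averaged 1085 ± 177 FPKM in the controls and 828 ± 126 FPKM after knockdown (log2 fold change −0.39, adjusted p = 0.21), and its estimate was 0.034 after quantile normalization. EEF1D, the delta subunit, was at 225 ± 52.9 and 163 ± 45.6 FPKM (log2 fold change −0.48, adjusted p = 0.316). With a term for replicate 2, both had adjusted p-values under the threshold, 0.0063 for EEF1G and 0.0044 for EEF1D. Replicate 2 was the lowest library of both groups in each.

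EEF2, which moves the ribosome by a codon, measured 1058, 810 and 1188 FPKM in the shControl libraries and 901, 657 and 996 FPKM in the shEphexin1 libraries. The groups overlapped (log2 fold change −0.26, SE 0.20, adjusted p = 0.487), and after quantile normalization the estimate was 0.19. EEF2K, the kinase that inactivates eEF2, ranged from 6.70 to 7.19 FPKM among shControl and from 5.61 to 6.64 FPKM among shEphexin1 libraries, with a very narrow gap between the groups.

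For the ternary complex and start selection, 1 of 11 factors tested passed the test and the median was −0.16, which was −0.047 after quantile normalization. EIF2S2 (ENSG00000125977, GRCh37 chr20:32676115-32700049, minus strand) encodes the beta subunit of eIF2, the GTP-binding factor that carries the initiator tRNA. It measured 108, 115 and 108 FPKM in the shControl libraries and 70.0, 80.2 and 69.3 FPKM in the shEphexin1 libraries. The highest shEphexin1 library was well below the lowest shControl library, and the level was 66.4% of control (log2 fold change −0.59, SE 0.10, adjusted p = 0.0194 in limma).

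The other 2 subunits of eIF2 did not pass the test. EIF2S1, the alpha subunit that the stress kinases phosphorylate, was at 67.8 ± 5.76 and 62.4 ± 11.7 FPKM (log2 fold change −0.13, 95% interval −0.49 to 0.22). EIF2S3, the gamma subunit, was at 80.8 ± 4.05 and 72.7 ± 9.03 FPKM (log2 fold change −0.16). The ratio of EIF2S2 to EIF2S1 FPKM was 1.58, 1.57 and 1.74 in shControl and 1.15, 1.07 and 1.34 in shEphexin1, with no overlap (exact permutation test, p = 0.1, the smallest possible). It reuses the EIF2S2 values above, so it is no separate support.

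EIF1, the most abundant of these factors, guards start codon choice and ranged from 105 to 115 FPKM among shControl and from 93.9 to 103 FPKM among shEphexin1 libraries. The groups did not overlap, but the gap was small (log2 fold change −0.12, adjusted p = 0.507). Its paralog EIF1B was at 29.4 ± 4.03 and 23.1 ± 4.0 FPKM and made up 21.3% ± 1.39 and 18.7% ± 1.96 of the pair (exact permutation test, p = 0.2). EIF2D, which can deliver initiator tRNA without eIF2, measured 16.9, 15.2 and 18.8 FPKM in the shControl libraries and 12.7, 11.4 and 13.5 FPKM in the shEphexin1 libraries, without overlap and with an adjusted p of 0.0954. EIF5B, the GTPase of subunit joining, had one of the largest positive estimates, 0.16 (SE 0.19), with overlapping groups.

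None of the 5 eIF2B subunits, which recharge eIF2 with GTP, passed the test, and their estimates ran from −0.22 to 0.052. EIF2B2, the most abundant, measured 30.6, 28.7 and 33.7 FPKM in the shControl libraries and 28.5, 23.5 and 28.1 FPKM in the shEphexin1 libraries, with a narrow gap between the groups.

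Of the 4 kinases that phosphorylate eIF2, 1 passed the test, and the estimates ran from −0.46 to 0.31. EIF2AK1 (HRI, ENSG00000086232, GRCh37 chr7:6061878-6098806, minus strand), the kinase that responds to heme shortage and mitochondrial stress, measured 33.2, 34.8 and 37.2 FPKM in the shControl libraries and 24.6, 25.9 and 25.9 FPKM in the shEphexin1 libraries. The groups were clearly apart, at 72.7% of control (log2 fold change −0.46, SE 0.10, adjusted p = 0.0388 in limma). EIF2AK3 (PERK), the kinase of endoplasmic reticulum stress, measured 3.65, 3.55 and 3.47 FPKM in the shControl libraries and 4.57, 4.61 and 4.17 FPKM in the shEphexin1 libraries.

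EIF2AK3 was thus higher in every shEphexin1 library, the only factor of the 58 of which this holds, but its difference of 0.31 (SE 0.13) had an adjusted p of 0.198. EIF2AK4 (GCN2), which responds to uncharged tRNA, ranged from 27.7 to 28.7 FPKM among shControl and from 25.4 to 26.2 FPKM among shEphexin1 libraries, a small gap with no overlap (adjusted p = 0.451). EIF2AK2 (PKR), which responds to double-stranded RNA, was at 14.2 ± 2.92 and 14.2 ± 2.21 FPKM, the same mean in both groups. Of the summed FPKM of the 4 kinases, EIF2AK1 made up 43.3% ± 2.16 in shControl and 36.5% ± 1.06 in shEphexin1, and EIF2AK3 4.39% ± 0.26 and 6.37% ± 0.34, both without overlap (exact permutation test, p = 0.1 for each). These shares reuse the kinase values above and are no separate support.

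In the eIF3 complex, the scaffold that holds the small subunit ready for the mRNA, all 12 subunits tested had estimates below 0 (median −0.22). Of all genes of at least 50 FPKM, 73.9% had estimates below 0 (median −0.18). Below 0 were 9 subunits after quantile normalization (median −0.090), 9 after correction for GC content and length and 11 with arm medians subtracted. Of the 12, 2 passed the test. EIF3B (ENSG00000106263, GRCh37 chr7:2393721-2420380, plus strand), a core subunit, measured 144, 119 and 151 FPKM in the shControl libraries and 94.1, 72.7 and 95.6 FPKM in the shEphexin1 libraries. Replicate 2 was the lowest library in both groups, and the groups did not overlap. The level was 63.2% of control (log2 fold change −0.66, SE 0.15, adjusted p = 0.0409 in limma), with −0.64 in replicates 1 and 3 and −0.72 in replicate 2.

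EIF3L (ENSG00000100129, GRCh37 chr22:38244875-38285414, plus strand), a peripheral subunit, measured 73.6, 72.7 and 76.2 FPKM in the shControl libraries and 53.3, 54.4 and 56.4 FPKM in the shEphexin1 libraries. Both groups were tight and clearly separated (log2 fold change −0.44, SE 0.089, adjusted p = 0.0332 in limma). EIF3K, which pairs with eIF3L in the complex, by contrast measured 526, 469 and 605 FPKM in the shControl libraries and 524, 443 and 563 FPKM in the shEphexin1 libraries. These groups overlapped (log2 fold change −0.065, SE 0.14), and EIF3K turned to 0.32 after quantile normalization, with an adjusted p of 0.0461.

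Of the remaining subunits, EIF3A, EIF3E and EIF3H had groups that did not overlap. EIF3E, a subunit of the module that binds eIF4G, measured 309, 342 and 298 FPKM in the shControl libraries and 219, 277 and 209 FPKM in the shEphexin1 libraries (log2 fold change −0.44, adjusted p = 0.0966). EIF3H measured 154, 169 and 159 FPKM in the shControl libraries and 122, 132 and 118 FPKM in the shEphexin1 libraries (log2 fold change −0.38, adjusted p = 0.0594). EIF3A, the largest core subunit, was at 84.7 ± 1.21 and 70.3 ± 1.87 FPKM (log2 fold change −0.27, adjusted p = 0.119).

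The subunits were not equal in level, from 33.8 FPKM for EIF3J to 522 FPKM for EIF3K as means over the 6 libraries. EIF3C and its near-identical copy EIF3CL were listed at 0 or nearly 0, although eIF3c is a core subunit. Reads that match both copies may not have been assigned to either, so their values are uncertain and nothing is read from them.

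**Figure D3:**
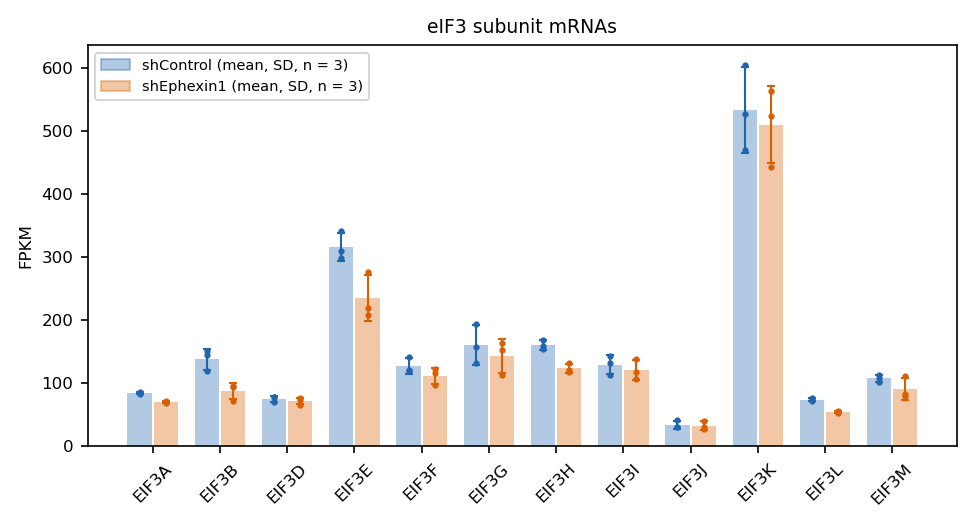
FPKM of the 12 eIF3 subunits tested (y axis, linear). Bars are means of 3 libraries, error bars are SD and points are single libraries, shControl in blue and shEphexin1 in orange. EIF3B and EIF3L passed the test, and EIF3K, the highest subunit, has overlapping groups.

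The eIF5A and eIF6 factors and the termination and poly(A)-binding factors held no call. EIF6, which keeps free large subunits from joining, measured 336, 256 and 393 FPKM in the shControl libraries and 227, 177 and 253 FPKM in the shEphexin1 libraries. The highest shEphexin1 library was just below the lowest shControl library, and the difference of −0.57 had a wide error (SE 0.19, adjusted p = 0.128). With a term for replicate 2, its adjusted p was 0.0016. EIF5A, which keeps ribosomes moving through stretches of proline, was at 307 ± 45.5 and 286 ± 46.2 FPKM, and its paralog EIF5A2 at 9.98 ± 2.46 and 8.88 ± 2.84 FPKM, both with overlapping groups.

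PABPC1, the main cytoplasmic poly(A)-binding protein, measured 379, 446 and 321 FPKM in the shControl libraries and 331, 352 and 307 FPKM in the shEphexin1 libraries. The groups overlapped (log2 fold change −0.20, SE 0.14), and after quantile normalization the estimate was 0.11. PABPC4 was at 64.7 ± 1.25 and 55.5 ± 2.19 FPKM, without overlap (adjusted p = 0.197).

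Under the filter were 6 factors: EIF1AY, EIF3C, EIF3CL, EIF4E1B, EIF4E3 and EIF5AL1. None of their values is compared between groups. EIF4E3, an eIF4E relative, was at 0.017 to 0.089 FPKM over the 6 libraries.

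The position of the 6 lower factors was set beside the median difference of their chromosome arm. EIF3B and EIF2AK1 both lie on 7p, where the median log2 fold change over 191 expressed genes was −0.24, and EIF2S2 lies on 20q, with −0.21 over 225 genes. After subtraction of the arm's median, the difference was −0.46 for EIF3B (adjusted p = 0.137), −0.25 for EIF2AK1 (adjusted p = 0.211) and −0.42 for EIF2S2 (adjusted p = 0.0649), none of which passes the threshold. EIF4B on 12q (−0.67), EEF1B2 on 2q (−0.63) and EIF3L on 22q (−0.55) kept adjusted p-values no greater than 0.0203. EIF4H on 7q, where the median over 390 genes was 0.30, moved to −0.58 with an adjusted p of 0.0351. In this setting 4 factors were lower and 0 higher, beside 2.4% and 1.94% of all genes tested. A difference between the lines in a whole arm and a difference of single genes cannot be told apart for EIF3B, EIF2AK1, EIF2S2 and EIF4H. KRT8 and KRT18 lie close to EIF4B on 12q and were lower in shEphexin1 too, at 46.1% and 52.0% of the control mean. The median of an arm does not show a difference of a smaller region. Whether EIF4B, KRT8 and KRT18 share such a difference was not tested.

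In the 2 replicates other than replicate 2, 17 factors were lower at adjusted p ≤ 0.05 and 0 were higher, where 10.4% of all genes tested were lower and 6.89% were higher. With a term for replicate 2, 25 were lower and 0 higher, beside 17.1% of all genes tested lower and 12.2% higher. The median over the factors was −0.21 in replicates 1 and 3 and −0.14 in replicate 2, where 44 of the 58 were lower in shEphexin1. The 6 factors named above were lower at the threshold in both settings.

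Of the 58 factors tested, 47 had an annotated RefSeq start, and 12 of them (25.5%) had a start with the C and at least 4 further pyrimidines, read on the gene's strand only. This form was found in 7.0% of the 11327 tested genes with a start and in 4.07% of all 35116 starts in the table. The median log2 fold change was −0.23 in the 12 factors with the form and −0.13 in the 35 without it. At adjusted p ≤ 0.05, 2 of the former (EIF4B and EEF1B2) and 1 of the latter (EIF3B) were lower. EIF2S2, EIF3L and EIF2AK1, lower at the same threshold, had no annotated start here and were not classed. Over all tested genes with a start, the median was −0.096 in 793 genes with the form and −0.011 in those without it. Among those of at least 50 FPKM, it was −0.37 in 158 genes with the form and −0.13 in 901 without it. Genes with and without the form were not matched for level, and the part of level in this gap was not tested. After quantile normalization the medians of the factors were −0.090 and −0.0097. These are descriptions of annotated starts, and the starts used in H1299 cells were not measured.

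Other genes of translation were examined in 3 lists, and 3 of 29 genes tested were lower at adjusted p ≤ 0.05, with 0 higher. Of all genes tested, 4.32% were lower and 2.69% were higher. The eIF4E-binding proteins, which hold eIF4E back until mTOR phosphorylates them, gave 0 of 3. EIF4EBP1 measured 67.2, 56.1 and 75.6 FPKM in the shControl libraries and 47.5, 37.6 and 59.9 FPKM in the shEphexin1 libraries, with overlapping groups (log2 fold change −0.47, adjusted p = 0.195). EIF4EBP2 ranged from 18.5 to 21 FPKM among shControl and from 13.9 to 15.4 FPKM among shEphexin1 libraries, without overlap (log2 fold change −0.41, adjusted p = 0.0685). With arm medians subtracted, the difference of EIF4EBP2 was −0.13 (adjusted p = 0.563 in limma).

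EIF4EBP3, whose exons are shared with a readthrough transcript from ANKHD1, varied from 0 to 4.97 FPKM within the shEphexin1 group alone, and no direction is read from it. EIF4EBP1 per EIF4E was 1.58 ± 0.36 in shControl and 1.35 ± 0.59 in shEphexin1 as a ratio of FPKM (exact permutation test, p = 0.7).

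Among 16 further factors tested, 1 was lower. PAIP2B, an inhibitor of poly(A)-binding protein, measured 0.844, 1.02 and 0.837 FPKM in the shControl libraries and 0.147, 0.198 and 0.245 FPKM in the shEphexin1 libraries. It was low in every library and lowest in shEphexin1, at 21.8% of control, and it was the single related gene past the 2-fold threshold (log2 fold change −1.76, SE 0.25, adjusted p = 0.0103 in limma). PAIP1, an activator that binds the same protein, measured 36.3, 39.7 and 33.4 FPKM in the shControl libraries and 22.2, 30.7 and 20.4 FPKM in the shEphexin1 libraries, without overlap (log2 fold change −0.59, adjusted p = 0.0826). With single libraries left out, the adjusted p of PAIP2B rose to at most 0.0625. Its fold change depends on the pseudocount at this low level, and with 1 FPKM in place of 0.1 the log2 fold change was −0.67, under 2-fold.

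Among 10 regulators, 2 were lower and 0 were higher. RPS6KB1, the S6 kinase that phosphorylates eIF4B, measured 11.3, 13.8 and 10.5 FPKM in the shControl libraries and 6.82, 8.33 and 6.01 FPKM in the shEphexin1 libraries, with no overlap (log2 fold change −0.74, SE 0.17, adjusted p = 0.0428 in limma). ATF4, a transcription factor whose translation rises when eIF2 is phosphorylated, measured 187, 185 and 202 FPKM in the shControl libraries and 134, 124 and 146 FPKM in the shEphexin1 libraries. Its groups were likewise apart (log2 fold change −0.51, SE 0.10, adjusted p = 0.0312 in limma). With single libraries left out, the adjusted p rose to at most 0.165 for RPS6KB1 and 0.143 for ATF4. With arm medians subtracted, the differences were −0.57 for RPS6KB1 (adjusted p = 0.111 in limma) and −0.62 for ATF4 (adjusted p = 0.0202). After quantile normalization their adjusted p-values were 0.0667 and 0.0526. These are mRNA levels, and neither protein amounts nor phosphorylation were measured in these files.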

How the data were processed

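RNA-seq of 3 shControl and 3 shEphexin1 libraries was analysed. Per the submitters' processing notes, the authors used bcl2fastq 2.20, Bowtie, TopHat2 2.0.13 and Cufflinks 2.2.1 on GRCh37/hg19, with geometric normalization and pooled dispersion per the methods. The gene annotation is not given in the sources used here. The deposited values are FPKM per gene and library, with no read counts, so depth is unknown and no counting interval is given. 0 value columns were left out. The 3 libraries per group were compared on log2(FPKM + 0.1), so fold changes of low genes are understated, with limma 3.58.1 (lmFit, eBayes with trend) in R 4.3.3 for 16020 genes of at least 0.1 FPKM in at least 3 libraries, with Benjamini-Hochberg adjustment over all of them. The authors' own test needs reads. Exact permutation tests are two-sided. Positions are from GENCODE release 44 on GRCh37. Python 3.11.15, pandas 2.3.3, scipy 1.17.1 and matplotlib 3.10.9 served for the rest. The fit was tested on simulated data. The name rule uses no measured value, but this family of factors and the lists were chosen with earlier results of these data known. Named in the text are factors with an adjusted p of at most 0.05, the 3 largest positive and negative estimates, the most abundant of each role, paralogs, eIF2 kinases, eIF4E-binding proteins, NGEF and called related genes, and others were named after their values were seen. A further marker of the line is not reported here.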

Additional observations from a re-analysis of the deposited data

How the results depend on the processing

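Without read counts, depth limits each value to an unknown degree, and edgeR and DESeq2 were not run. EIF4B was lower at an adjusted p of at most 0.05 under all 20 alternatives for which it has a value, with log2 fold changes of −0.82 to −0.62. Against 6 factors lower and 0 higher at that threshold (median −0.20), the counts were 18 and 1 (EIF2AK3) after correction for GC content and length (median −0.13), 25 and 4 (EIF2AK3, EIF4A2, EIF5B, ETF1) with that correction and a replicate block, 17 and 0 in replicates 1 and 3 alone (median −0.21), 25 and 0 with a term for replicate 2, 2 and 1 after quantile normalization (median −0.042), and 3 lower without the trend. The shares of all genes tested that were lower and higher moved with these counts, from 4.32% and 2.69% to 14.9% and 12.4%, 19% and 15.8%, 10.4% and 6.89%, 17.1% and 12.2%, 3.11% and 2.56%, and 3.18% and 2.51% in the same order. In replicates 1 and 3 alone, 44 factors had groups that did not overlap, beside 61.8% of all genes tested, a share that 2 libraries against 2 raise, and in all 6 libraries 23 did, beside 28.3%. The median was −0.17 without a filter. At an adjusted p of at most 0.025 with no fold threshold, 3 factors were called, all lower, where 2.15% of all genes tested were lower. With each library left out in turn, 1 to 9 factors were lower (0.543% to 4.94% of all genes tested), the median was −0.22 to −0.15 and 23 to 36 factors had groups that did not overlap (32.2% to 47.2% of all genes tested). EIF4B was the only factor lower without shControl replicate 1 or 3 or shEphexin1 replicate 1 or 3, 3 were lower without shControl replicate 2 and 9 without shEphexin1 replicate 2.

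Of the related genes, 3 were lower and 0 higher, against 9 and 3 after GC and length correction, 11 and 3 with the block added, 6 lower in replicates 1 and 3, 8 and 1 with a term for replicate 2, 1 lower without the trend and 1 after quantile normalization, and 0 to 4 lower with each library left out. The shares of all genes tested in these settings are those given for the factors above. NGEF passed the threshold after GC and length correction with and without the block (−0.56), in replicates 1 and 3 (−0.54) and with a term for replicate 2 (−0.53).

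Same-numbered libraries of the groups deviated together with correlations of 0.091, 0.43 and 0.33 across genes, and each library correlated best with its own number, a hint from the data and not from the design. They were not treated as pairs. A replicate block gave 29 factors lower and 0 higher (19.7% and 13.8% of all genes tested), 10 related genes lower and 1 higher, and an NGEF difference of −0.53 that passed the threshold.

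The sign changed for 6 factors after GC and length correction, for 10 after quantile normalization and for 4 with arm medians subtracted. After GC and length correction, with or without the block, the estimates were 0.029 for EIF3K, −0.025 for EEF1A2, 0.028 for EIF4E2 and 0.030 for EIF3J, and EIF3D and EIF5 also turned above 0. After quantile normalization they were 0.32 for EIF3K, 0.13 for EIF4A1, 0.15 for EIF5A, 0.11 for PABPC1, 0.067 for EIF4E2, 0.034 for EEF1G, 0.19 for EEF2, 0.050 for EIF3D, 0.056 for EIF3I and 0.069 for EIF5, of which EEF1G, EEF2 and EIF4A1 had been at −0.39, −0.26 and −0.24. With arm medians subtracted they were 0.052 for EIF1, −0.043 for EIF2AK2, 0.038 for EIF2B1 and 0.012 for EIF3A, which had been at −0.27. EIF4E2 was 0.0074 with median centring and 0.031 in replicates 1 and 3, and EIF4EBP3 was 0.31 with a pseudocount of 1 FPKM. With each library left out, the range crossed 0 for EIF2B4, ETF1, EIF5 and, with values, for EIF3K (−0.15 to 0.032), EIF5A (−0.23 to 0.040), EEF1A2 (−0.082 to 0.26), EIF4E2 (−0.072 to 0.087), EIF5A2 (−0.43 to 0.0077), EIF2AK2 (−0.12 to 0.16), EIF3J (−0.23 to 0.073) and EIF4EBP3 (−1.30 to 1.53). The cause of these changes was not tested.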
